A study of Mus musculus with 20 samples.

Results

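The transcripts described here are 10 genes of neurons and axons, measured in the mouse utricle among the 25655 genes of the deposited tables. They were chosen by name, with no threshold on their values. They comprise the neurofilament subunits *Nefl*, *Nefm* and *Nefh* and the related filament proteins *Ina* (alpha-internexin) and *Prph* (peripherin). The others are *Stmn2*, *Gap43*, *Tubb3*, *Snap25* and *Uchl1*. All 10 had a row in the tables and a count in at least 1 library.

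The RNA came from utricles of female C57BL/6J mice that had surgery at the age of 8 weeks and were killed 4 weeks later, with 5 libraries in each of 4 groups. The sham + v group kept its ovaries and carried a vehicle pellet. The OVX + v group was ovariectomized (OVX) and carried the same kind of pellet. The OVX + E2 group was ovariectomized and carried a pellet made to release 50 µg of estradiol in 60 days. The OVX + RAL group was ovariectomized and carried one made to release 2.4 mg of raloxifene, a selective estrogen receptor modulator, in 60 days, so that in both groups the utricles were taken before the end of release. All groups shared the strain, the age, an operation and a pellet, and each was compared with the OVX + v group, so that the comparisons share these 5 control libraries.

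The utricle is an organ of balance whose hair cells are contacted by the fibers of vestibular neurons. The cell bodies of these neurons lie outside the utricle, in the vestibular ganglion, so that the fibers are the part of the neuron a dissected utricle contains. Neurofilaments are heteropolymers of light, medium and heavy chains that fill the axon and set its caliber, and the light chain forms the core on which the others assemble. Alpha-internexin and peripherin can join the same filaments, peripherin mainly in peripheral neurons.

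The kit used for the libraries, which started from 1 ng of total RNA each, primes at the poly(A) tail and yields reads near the 3′ end of a transcript, so that counts were not divided by gene length. Levels are given as CPM, the reads of a gene for every 1000000 reads counted in its library. The libraries held 1123053 to 2081747 counts (median 1694819.5), with the lowest range in the OVX + E2 group (1123053 to 1507667). Between 7427 and 10694 genes had a count, and between 7427 and 9680 in the OVX + E2 group. A gene was taken as detected from 3 counts, which stand for 1.44 CPM in the deepest library and 2.67 CPM in the shallowest. In whole tissue, fewer fibers and less RNA per fiber cannot be told apart.

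Only *Nefm* and *Nefl* were counted in all 20 libraries, and together they gave 82.3% of the counts of the 10 genes. Over the pooled counts their share was 71.4% for OVX + RAL, and 85.6% to 85.9% for the other groups. The lower value came from OVX + RAL replicates 16 (60.4%) and 20 (57.7%), and the median library was at 82.9% in that group and at 85.8% to 88.2% in the others. The summed level of the 10 genes was 245.5 ± 40.6 CPM (SD, n = 5 here and below) in the sham + v group, 229 ± 119 CPM in the OVX + v group, 181 ± 97.8 CPM in the OVX + RAL group and 171 ± 73.7 CPM in the OVX + E2 group. The ranges of the 4 groups overlapped, from 208.9 to 313 CPM in the sham + v group against 111.7 to 425 CPM in the OVX + v group. No gene of the 10 passed an adjusted p of 0.05 in any comparison, as detailed below.

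*Nefm*, the medium chain, was the most abundant of the 10. In the sham + v group it had 185, 181, 130.4, 145.9 and 118.7 CPM in replicates 1 to 5. In the OVX + v group it had 271.6, 141.8, 90.1, 160.5 and 98.2 CPM in replicates 6 to 10. The sham + v libraries lay within the range of the OVX + v libraries, whose replicate 6 was the highest of all 20.

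In the OVX + E2 group *Nefm* had 124.7, 160.1, 141.9, 32.1 and 83.5 CPM in replicates 11 to 15. In the OVX + RAL group it had 96.2, 61.9, 172.7, 47.7 and 88.9 CPM in replicates 16 to 20. Replicate 14, at 36 counts, was the lowest of the 20 and was also the library with the fewest genes with a count (7427). The part of this lower yield in its *Nefm* level was not tested.

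The group means of *Nefm* were 152 ± 72.8 CPM for the OVX + v group, 152 ± 29.8 CPM for the sham + v group, 108 ± 51.3 CPM for the OVX + E2 group and 93.5 ± 48.5 CPM for the OVX + RAL group (SD, n = 5). Relative to the OVX + v group, the quasi-likelihood fit of edgeR gave raloxifene-treated utricles a log2 fold change of -0.71 with a standard error of 0.439 (adjusted p = 0.714 by the Benjamini-Hochberg method over all genes). For estradiol-treated utricles it gave -0.49 with a standard error of 0.568 (adjusted p = 1.00, edgeR). Without OVX + v replicate 6 the values were -0.39 and -0.18, and without OVX + RAL replicate 18 the first was -1.05. Without OVX + E2 replicate 14 the second was -0.26. The sham + v and OVX + v means differed by less than 1 CPM, with a standard error of 0.428 on the log2 scale. The standard errors are as large as most of these differences, so that a difference of the size seen in the OVX + RAL group was not resolved with 5 libraries a group.

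*Nefl*, the light chain, had 53.6, 38.8, 72.3, 48.1 and 90.2 CPM in the sham + v group. It had 64.2, 65.9, 13.6, 47.1 and 25.8 CPM in the OVX + v group. Each sham + v library was above the lowest pair of OVX + v libraries, and the ranges of the groups overlapped.

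In the OVX + E2 group *Nefl* had 18.6, 60.4, 24.8, 35.6 and 56.1 CPM. In the OVX + RAL group it had 101.3, 24.8, 12.3, 40.4 and 6.24 CPM. The OVX + RAL group thus held both the highest and the lowest of the 20 libraries.

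The group means of *Nefl* were 60.6 ± 20.6 CPM for sham + v, 43.3 ± 23.2 CPM for OVX + v, 39.11 ± 18.6 CPM for OVX + E2 and 37.02 ± 38.3 CPM for OVX + RAL (SD, n = 5). Relative to OVX + v, the log2 fold change was 0.48 ± 0.855 (standard error) for sham + v, -0.15 ± 1.22 for OVX + E2 and -0.23 ± 0.883 for OVX + RAL. The adjusted p was 1.00 in all 3 (edgeR). The value for sham + v was 0.26 without replicate 8 and 0.30 without replicate 5. Without replicate 20 the value for OVX + RAL was 0.047, and for OVX + E2 it was 0.032 to 0.055 without replicate 6, 7 or 11.

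**Figure D1:**
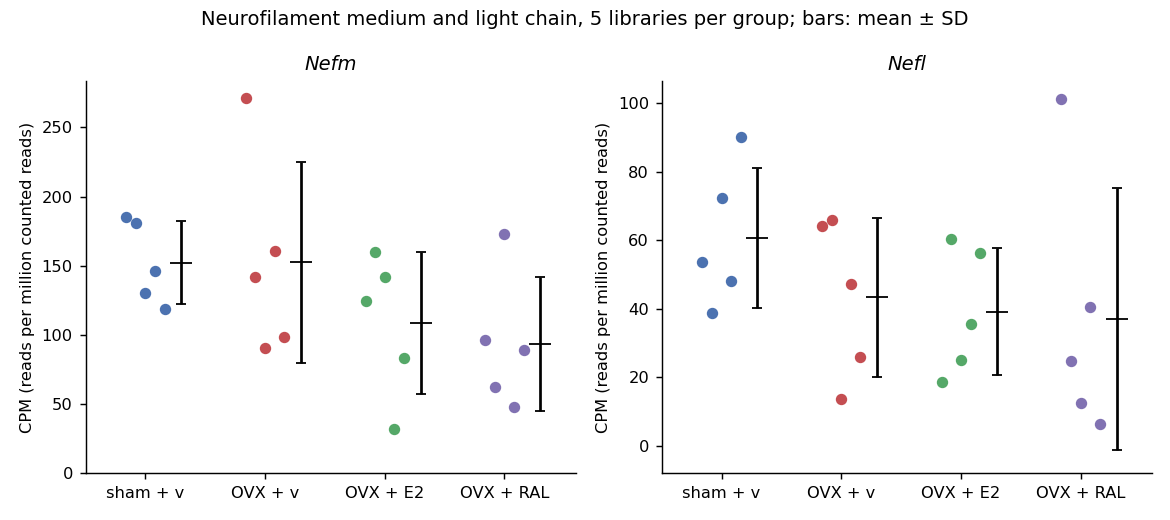
CPM of *Nefm* (left) and *Nefl* (right) in the 5 libraries of each group, as points, with the mean and SD as bars. *Nefm* ran from 32.1 to 271.6 CPM and *Nefl* from 6.24 to 101.3 CPM, and the groups overlapped for both genes.

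The groups were also ordered by their mean level, and neighbours in that order were compared by two-sided exact permutation tests of log2(CPM + 1) over all groupings of 5 and 5 libraries, which can give no p below 0.00794. For *Nefm* the order was OVX + v, sham + v, OVX + E2 and then OVX + RAL, with exact p = 0.778, 0.151 and 0.778 for the successive neighbours. For *Nefl* the sham + v group came first and the OVX + v group second, before OVX + E2 and OVX + RAL, with exact p = 0.238, 0.889 and 0.5. Over the 30 such tests of the 10 genes the smallest p was 0.151, and the adjusted p was 1 in each, so that none passed 0.05. Even at the lowest p possible, a single pair alone could not have passed after adjustment over 30 tests. A gene with counts in at most 1 library of both groups could not give a small p. Groups farther apart in the order were not covered by these tests.

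The share of each chain varied between libraries by more than the error of counting reads, with no comparison to the spread between other pairs of genes. Of the reads counted on *Nefm* and *Nefl* together, *Nefm* took 47.4% (95% Wilson interval 36.5 to 58.4) in OVX + E2 replicate 14 and 48.7% (43.7 to 53.7) in OVX + RAL replicate 16. It took 93.3% (90.02 to 95.6) in OVX + RAL replicate 18 and 93.4% (89.1 to 96.1) in replicate 20. These intervals cover counting error only, and libraries of the same group lay outside each other's intervals.

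By group the share of *Nefm* was 78.5% ± 6.75 for OVX + v, 71.3% ± 10.4 for sham + v, 70.4% ± 16.9 for OVX + E2 and 72.2% ± 21.1 for OVX + RAL (SD, n = 5). Its difference from the OVX + v group was -7.27 percentage points for sham + v, -8.14 for OVX + E2 and -6.31 for OVX + RAL. Two-sided exact permutation tests gave p = 0.222, 0.349 and 0.532 in that order, and 0.524, 0.524 and 0.532 when adjusted over the 3 tests.

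**Figure D2:**
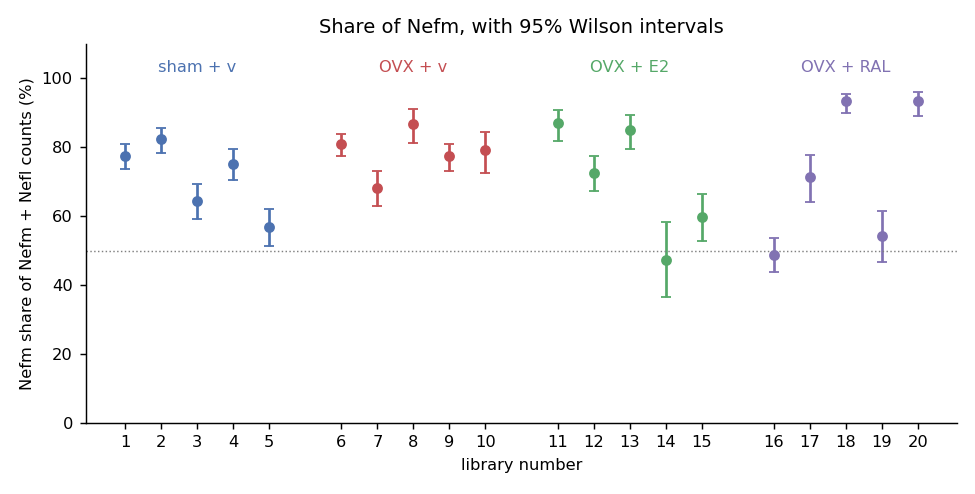
Share of *Nefm* in the summed counts of *Nefm* and *Nefl* (percent) for each of the 20 libraries, with 95% Wilson intervals as bars and a dotted line at 50%. The OVX + RAL libraries spread from 48.7% to 93.4%, and the OVX + v libraries from 68.3% to 86.9%.

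The pair of genes share a place in the genome. In the deposited tables *Nefl* (ENSMUSG00000022055) lies on the plus strand at chr14:68321312-68326544 of GRCm39, and *Nefm* (ENSMUSG00000022054) on the minus strand at chr14:68320039-68362295, so that all 5233 bases of *Nefl* lie within the region of *Nefm*. In the GENCODE vM39 annotation of the same build this comes from a longer transcript, Nefm-202. Its last exon, of 2381 bases, covers 1152 of the 1191 bases of the first exon of *Nefl*. The 3′ ends, where the reads of this kit fall, are apart. The end of Nefm-202 lies 1229 bases before the start of *Nefl*, and that of the shorter Nefm-201 lies 30188 bases beyond the end of *Nefl*. The last exon of *Nefl*, of 1788 bases, shares 0 bases with exons of either transcript. The sources used here do not state whether reads were counted by strand, and without strand the reads of overlapping genes cannot be told apart, so that the split of counts between this pair carries that uncertainty. *Ina* likewise overlaps *Nt5c2*, on the opposite strand, by 456 bases at its 5′ end.

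**Figure D3:**
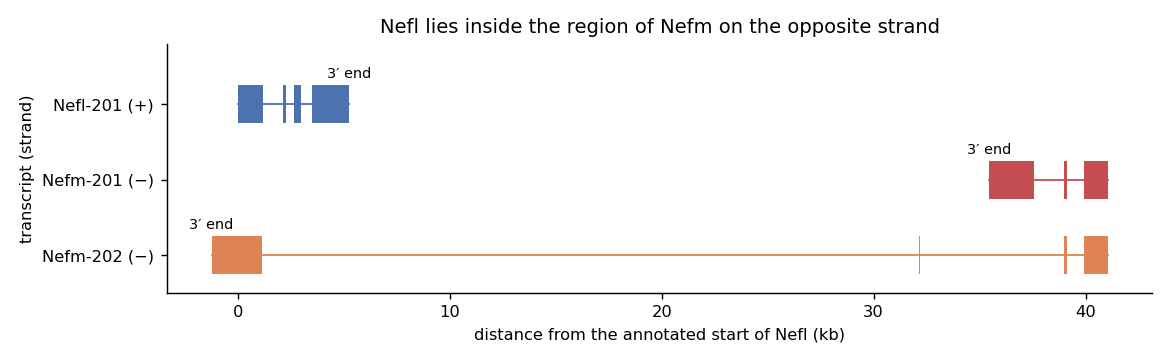
Exons (boxes) of Nefl-201, Nefm-201 and Nefm-202 in the GENCODE vM39 annotation, by distance from the annotated start of *Nefl* in kb, with the 3′ end of each transcript marked. Only the last exon of Nefm-202 overlaps *Nefl*, in 1152 bases of its first exon.

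The remaining 8 genes were counted in some libraries and not in others. Of their 160 values, 113 (70.6%) were 0, and 24 were 20 counts or more. A count of 0 in a library allows a level of up to 1.44 to 2.67 CPM, depending on its depth.

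*Nefh*, the heavy chain, had no count in the 5 sham + v libraries. In the OVX + v group it had 82 counts (51.1 CPM) in replicate 6 and none in the others. In the OVX + E2 group it had 16, 17, 0, 0 and 28 counts, and in the OVX + RAL group 126, 0, 52, 19 and 0 counts. The means were 10.2 ± 22.8 CPM for OVX + v, 8.62 ± 8.54 CPM for OVX + E2 and 21.1 ± 27.4 CPM for OVX + RAL (SD, n = 5). The mean of the OVX + v group was at least 6.02-fold higher than 3 counts per library would give in the sham + v group, and rested on replicate 6 alone. The adjusted p was 0.363 (edgeR, unadjusted p = 0.0247). The exact permutation test of log2(CPM + 1) gave p = 1. With counts in a single library of the 2 groups it can give no other value, so that it decides nothing here.

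*Ina* had 6 counts in sham + v replicate 3, 55 and 23 counts in OVX + v replicates 9 and 10, 8 counts in OVX + E2 replicate 11 and 3 counts in OVX + RAL replicate 16. *Prph* had 61 counts (29.7 CPM) in sham + v replicate 1 and none in the other 19 libraries. The sham + v mean of *Prph* was at least 3.29-fold higher than 3 counts per library would give in the OVX + v group, again from a single library (adjusted p = 0.363, unadjusted p = 0.0409, edgeR). Transcripts of *Ina* were thus counted in 5 of the 20 libraries and those of *Prph* in 1.

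*Stmn2*, a tubulin-binding protein of growing and regenerating axons, had 14 and 1 counts in sham + v replicates 3 and 4, 45 in OVX + v replicate 6 and 27 in OVX + RAL replicate 20. It had no count in the OVX + E2 group, where the OVX + v mean of 5.61 ± 12.5 CPM (SD, n = 5) was at least 2.45-fold higher than the level of 3 counts (adjusted p = 0.351, unadjusted p = 0.0418, edgeR). That bound rests on replicate 6 alone, without which the OVX + v group had no count either. The exact permutation test of log2(CPM + 1) gave p = 1 (two-sided), again the only value possible with counts in a single library. *Gap43*, a growth cone protein, had 87 counts (41.8 CPM) in OVX + RAL replicate 20 and 1 count in OVX + v replicate 9. The highest library of *Gap43* was thus also 1 of the 4 libraries with *Stmn2*.

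*Tubb3*, the neuronal class of beta-tubulin, had 2 and 26 counts in sham + v replicates 1 and 4, 5 and 1 in OVX + v replicates 6 and 7, and 24 and 11 in OVX + RAL replicates 16 and 18. It had no count in the OVX + E2 group. With 0.748 CPM in the OVX + v group, below the level of 3 counts, no fold is given for it there.

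*Snap25*, a part of the complex that fuses synaptic vesicles with the membrane, had 63, 26, 22, 0 and 0 counts in the sham + v libraries. In those of the OVX + v group it had 10, 7, 9, 0 and 7 counts. It had 38, 0, 0, 0 and 5 counts in the OVX + E2 group and 35, 9, 0, 0 and 0 in the OVX + RAL group. The means were 11.5 ± 12.6 CPM for sham + v, 4.12 ± 2.40 CPM for OVX + v, 5.74 ± 10.99 CPM for OVX + E2 and 4.57 ± 7.80 CPM for OVX + RAL (SD, n = 5). The OVX + v libraries were the most even, and 1 library of the OVX + E2 and 1 of the OVX + RAL group held most of the counts.

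*Uchl1*, a ubiquitin hydrolase abundant in neurons, had 27, 32, 0, 33 and 0 counts in the sham + v libraries. In those of the OVX + v group it had 1, 1, 5, 0 and 24 counts. In the OVX + E2 group all of its 55 counts came from replicate 12, and in the OVX + RAL group it had 64, 0, 2, 0 and 31 counts. The means, in the same order of groups, of 9.68 ± 9.04, 4.16 ± 7.10, 8.31 ± 18.6 and 9.80 ± 14.4 CPM (SD, n = 5) had SDs close to or above the means themselves.

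**Figure D4:**
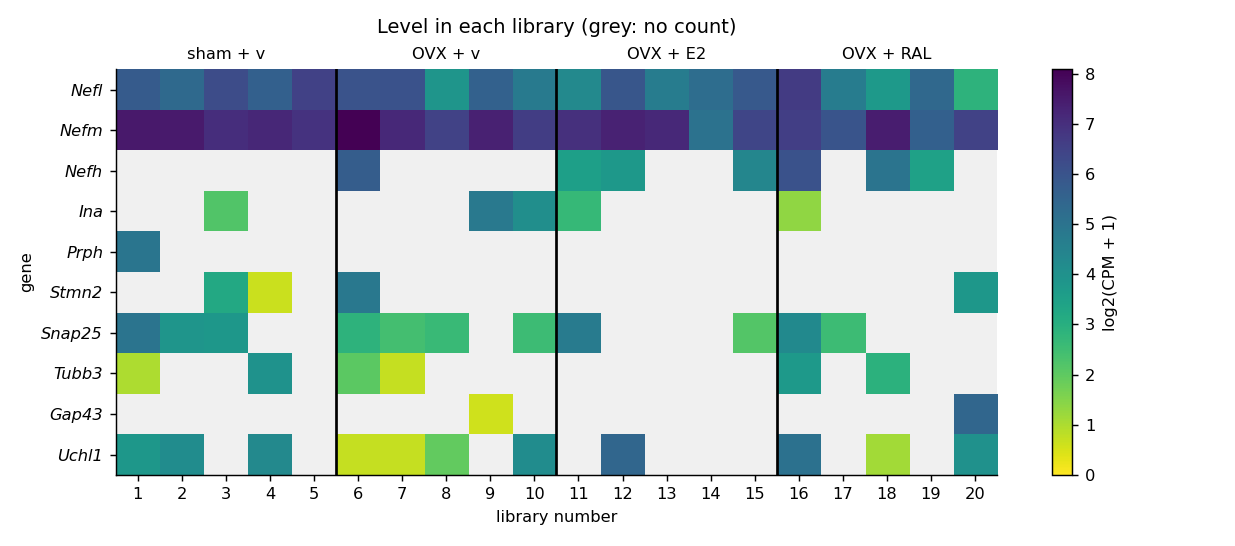
Level of each of the 10 genes as log2(CPM + 1) in each of the 20 libraries, by group, with grey where no read was counted. *Nefl* and *Nefm* fill every library, while 113 of the 160 values of the other genes are grey.

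The genes present in a library ranged from 2 to 7 of the 10. *Nefl* and *Nefm* alone were counted in sham + v replicate 5 and OVX + E2 replicates 13 and 14, and 7 genes in OVX + v replicate 6 and OVX + RAL replicate 16. The summed level of the 8 other genes was 0 CPM in the former 3 libraries and 89.1 and 129.6 CPM in the latter pair. The number of the 10 genes with a count moved with the number of all genes with a count in a library (Pearson's r = 0.617 over 20 libraries, given as a description). Whether library yield decided which of the genes were counted was not tested.

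Uneven counting was common among genes in the same broad range of mean level. Of the 4049 genes with a mean of 5 to 20 CPM, the median gene reached 3 counts in 10 of the 20 libraries, against 7 for *Nefh*, 8 for *Uchl1* and 11 for *Snap25*. Of the 1683 genes with a mean of 2 to 5 CPM the median was 4 libraries, against 5 for *Ina*, 3 for *Stmn2* and 1 for *Gap43*. Of the 1555 genes with 0.5 to 2 CPM it was 2 libraries, against 4 for *Tubb3* and 1 for *Prph*. *Nefl* reached 3 counts in all 20 libraries, where the median of 3601 genes with 20 to 50 CPM was 16. Among genes within 1.5-fold of each gene's own level, the median was 18 libraries for *Nefl*, 9 for *Nefh*, 8 for *Uchl1* and 7 for *Snap25*. It was 3 for *Ina*, *Stmn2* and *Gap43*, and 2 for *Tubb3* and *Prph*. The coefficient of variation of *Nefl* over the 20 libraries was 0.577, beside a median of 0.799 for 2951 genes within 1.5-fold of its level. That of *Nefm* was 0.438, beside 0.499 for 1332 genes. *Ina*, *Stmn2*, *Snap25*, *Tubb3* and *Uchl1* also lay under the median of genes of their level. *Nefh* lay above it, at 1.86 beside 1.55, as did *Prph*, at 4.47 beside 3.41, and *Gap43*, at 4.42 beside 3.04.

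**Figure D5:**
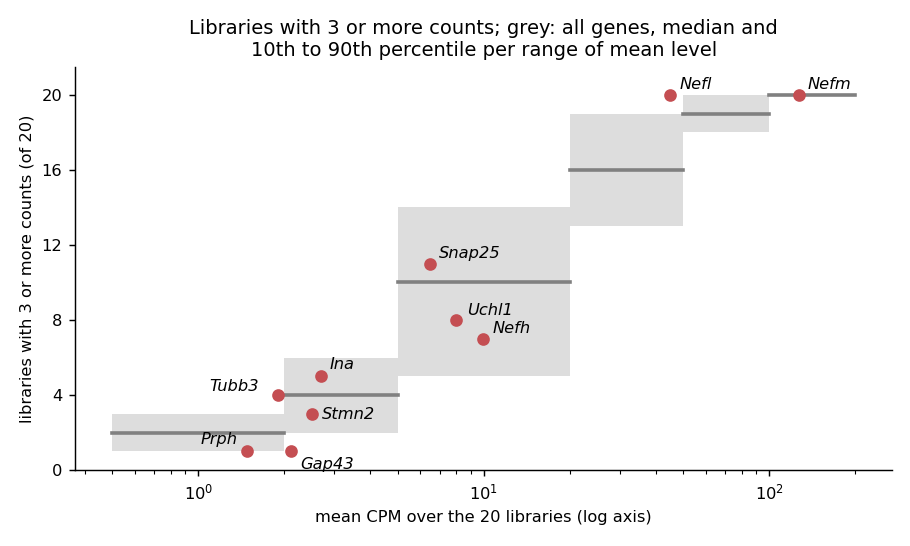
Number of libraries, of 20, with 3 or more counts of each of the 10 genes (points) by mean CPM on a log axis, over the median (grey line) and the 10th to 90th percentile (grey area) of all genes in the same range of mean level. *Nefl*, at 20 libraries, and *Tubb3*, at 4, lie above the percentile range of their level, and *Gap43*, at 1 library, below it.

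Across all genes, and always against the OVX + v group, edgeR called 2 of 13825 tested genes at an adjusted p of 0.05 for the sham + v group (0.0145%), 8 of 13695 for the OVX + E2 group (0.0584%) and 4 of 14002 for the OVX + RAL group (0.0286%). Of the 10 neuronal genes 9, 7 and 9 had the 10 counts over the 10 libraries that the test required, and 0 were called in each comparison. A test over all 4 groups called 21 of 14870 genes (0.141%) and 0 of the 10. At an unadjusted p of 0.05 the numbers were 2, 1 and 0 of the 10 in the 3 comparisons, beside 12.5%, 13.9% and 12.1% of all genes tested, and 3 (*Nefh*, *Prph* and *Gap43*) in the test over all groups, beside 16.3%. The genes concerned in the 3 comparisons were *Nefh*, *Prph* and *Stmn2*, each with counts in 1 library on 1 side and none on the other. Limma also called 0 of the 10 in each comparison. DESeq2 called 0, but gave no adjusted p to 5 of the 9 genes tested for sham + v, 4 of 7 for OVX + E2 and 2 of 9 for OVX + RAL, which it could therefore not call, and the smallest p of the exact permutation tests was 0.143.

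The median log2 fold change of the tested genes of the 10 was 0.48 for sham + v, -0.24 for OVX + E2 and 0.15 for OVX + RAL, beside -0.02, -0.06 and -0.03 over all genes tested. It was the same with the genes at 0 in a whole group set at their bound. The fold change was above 0 for 5 of 9, 2 of 7 and 5 of 9 of them. Most of these values come from genes at 0 in most libraries, for which the fitted fold change depends on single libraries.

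No pair of the 10 genes passed the test of correlation across libraries. *Nefl* and *Nefm* had a Pearson's r of 0.189 and a Spearman's rho of 0.205 on log2(CPM + 1) over the 20 libraries (permutation p = 0.425 and 0.386), and r was 0.276 without the 2 libraries farthest from the median of *Nefl*. After subtraction of the group means r was 0.00048 (permutation p = 0.998). Of the 45 pairs among the 10 genes, 2 had an unadjusted permutation p below 0.05 by Pearson's r, and none after adjustment over the 75 relations computed. They were *Nefl* with *Gap43* (r = -0.556, rho = -0.274, permutation p = 0.0261 and 0.267) and *Nefh* with *Tubb3* (r = 0.445, rho = 0.368, permutation p = 0.0340 and 0.107). The first r became 0.039 and the second 0.136 without the 2 libraries farthest from the median of the first gene, so that each rested on those libraries.

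The neurofilament genes were also set against the summed levels of other genes, by cell type. *Nefm* had r = 0.194 (rho = 0.186, permutation p = 0.413 and 0.431) with the summed CPM of 45 other neuronal genes, and 0.221 without the 2 farthest libraries. With 24 hair cell genes it had r = 0.416 (rho = 0.411, permutation p = 0.0674 and 0.0732) and 0.517 without the 2 farthest libraries, and with 20 Schwann cell genes r = 0.012 (rho = 0.177, permutation p = 0.961 and 0.456). *Nefl* had r = 0.145, 0.049 and 0.237 with the same lists. After subtraction of the group means its r with the Schwann cell list was 0.445 (permutation p = 0.0477, adjusted p = 0.517). None passed after adjustment over the 75 relations (adjusted p = 1 for r and 0.957 for rho).

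Most alike in pattern to the summed level of the 10 genes, among 7260 other genes with a mean of at least 20 CPM, were *Per2* (r = 0.747), *Eps15l1* (0.718), *Mettl14* (0.716), *Cers4* (0.712), *Cdc42* (0.699), *Wdr26* (0.699), *Cstf2t* (0.697), *Agfg1* (0.696), *Aldh2* (0.694) and *Acp1* (0.685), by Pearson's r over the 20 libraries. These are the extremes of many genes over few libraries, and are given without a test. None is a gene of the lists of cell types used here. The 20 genes of the neuronal list with that mean had a median r of -0.011, beside 0.028 over all 7260 genes. The median was 0.133 for 17 hair cell genes, with a highest r of 0.602, 0.0914 for 8 genes of afferent neurons, 0.0732 for 3 muscle genes and 0.0336 for 15 Schwann cell genes. The 1 gene of central glia had an r of 0.102.

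Other neuronal transcripts were counted as well. Of 45 genes listed, 43 had a count and 9 were counted in all 20 libraries. The most abundant were *Rtn1*, a protein of the neuronal endoplasmic reticulum, at 258 CPM on average (130.5 to 369 CPM) and *Map1b*, a microtubule-binding protein of axons, at 169 CPM (0.802 to 348 CPM). Both had higher means than *Nefm*, at 127 CPM over the 20 libraries. The summed level of the list was 1573 ± 317 CPM for sham + v, 1545 ± 208 CPM for OVX + v, 1442 ± 214 CPM for OVX + E2 and 1415 ± 180.0 CPM for OVX + RAL (SD, n = 5). Of 38, 41 and 40 tested in the 3 comparisons 0 were called.

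Genes of vestibular afferent neurons had 18 of 20 members with a count, led by the potassium channel *Kcna1* at 99.3 CPM. *Slc17a6*, a vesicular glutamate transporter of glutamatergic neurons, was counted in 3 of the 20 libraries. Of 8 genes of efferent and autonomic fibers, *Calca* (8.82 CPM) and *Npy* (3.49 CPM) were the highest, and the choline transporter *Slc5a7* (2.11 CPM) had 72 counts in 3 libraries. *Chat*, *Slc18a3*, *Th* and *Dbh*, other markers of cholinergic and noradrenergic neurons, had no count in any library. No afferent or efferent gene was called in the 3 comparisons, in which 16 and 4 of them were tested.

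Transcripts of the cells that sheathe the fibers were at higher summed levels than those of the fibers. The 20 Schwann cell genes summed to 8806 to 23022 CPM, led by *S100b* at 8682 CPM. *S100b* alone gave 71.0% of their counts. It was the only gene of the lists used here that was called. It had 9141 ± 1039 CPM in the OVX + v group and 6255 ± 1133 CPM in the OVX + E2 group (SD, n = 5), a log2 fold change of -0.55 with a standard error of 0.0806 (adjusted p = 5.16e-08, edgeR). With the default filter of edgeR it was not called. Its level was 7340 ± 2428 CPM in the sham + v group and 11990 ± 7192 CPM in the OVX + RAL group (SD, n = 5). Against OVX + v their log2 fold changes, -0.32 and 0.39, were not called (adjusted p = 0.363 and 0.402, edgeR).

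Markers of other cells differed in how evenly they were counted. The 24 hair cell genes, with the motor protein *Myo6* (393 CPM) and the potassium channel *Kcna10* (299 CPM) the highest, summed to 1520 to 3090 CPM and 0 were called. Of 10 genes of central glia, the oligodendrocyte genes *Mog*, *Opalin*, *Olig1* and *Olig2* had no count in any library. The oligodendrocyte genes *Hapln2*, *Ermn* and *Mobp* had 82 counts in 1 library, 59 counts in 2 and 1 count in 1, respectively. The library with *Hapln2* was OVX + v replicate 6, at 51.1 CPM. That library also held all *Nefh* and *Stmn2* counts of its group, and whether these counts are related was not tested. *Slc1a2*, a glutamate transporter (135.6 CPM), and the water channel *Aqp4* (6.83 CPM) were the highest of the 10. Of 10 skeletal muscle genes the sum ran from 3.35 to 746 CPM, with means of 71.4 ± 84.1 CPM for sham + v, 194 ± 160.0 CPM for OVX + v, 97.7 ± 73.3 CPM for OVX + E2 and 340.2 ± 306 CPM for OVX + RAL (SD, n = 5). *Pvalb* (60.4 CPM) and the calcium pump *Atp2a1* (29.3 CPM) were the highest of them. *Pvalb* is also a gene of sensory neurons, and the source of these counts and their part in the levels of the neuronal genes were not tested.

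Promoter sequences of RefSeq (GRCm38.p6, 250 bases before to 50 after the start) were matched for 4 of the 10 genes. The stretch from 47 to 18 bases before the start, where a TATA element lies in genes that have one, is shown for these 4, the ones matched, to let their letters at that place be compared. Capitals mark TATAAA and GGGCGG, searched on both strands.
Prph: ccggagaccgcagggcTATAAAgCCGCCCc
Tubb3: aGGGCGGggcagcctcttataagagggcgc
Ina: gtcgccccaaccccgcgccttaaaagcccc
Uchl1: ctgcaaggtttgggggcttggcttgtacca

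These windows were taken from the plus strand at chr15:99054924-99055223 (*Prph*), chr8:123411303-123411602 (*Tubb3*), chr19:47014431-47014730 (*Ina*) and chr5:66675871-66676170 (*Uchl1*). TATAAA was found in 1 of the 4 windows, that of *Prph*, 31 bases before the start, and in 13.6% of 32851 promoters. GGGCGG, the core of an Sp1 element, was found in 3 of the 4 (*Tubb3*, *Prph* and *Ina*) and in 35.7% of all promoters. TCAGCACC, a stretch of the element bound by the neuronal repressor REST, was found in that of *Tubb3* and in 1.65% of all promoters. CCAAT was found in *Tubb3* and in 37.4%, whereas AGGTCA, a half-site of estrogen and other nuclear receptors, and TGACGTCA, the cyclic AMP response element, were in 0 of the 4 windows and in 16.3% and 1.79% of all promoters. These matches are descriptions of letters in short windows.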

How the data were processed

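RNA of the utricle was measured in 20 libraries, grouped by their labels, and replicates carry the library numbers 1 to 20 of those labels. As the study's methods describe, the authors removed the first 12 nucleotides of the reads and reads under 20 nucleotides, and used CLC Genomics Workbench to map the rest to GRCm39 (release 105) and count them. The version, the strand setting and the handling of reads matching several genes are not given in the sources used here. The deposited total counts are raw counts of reads per gene and were the only values used. The deposited tables also hold the authors' normalized values and comparisons, which were not used. The 3 deposited tables repeat the OVX + v libraries with the same counts, and the first of the 3 tables stacked in 1 of them was taken.

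Each group was set against the OVX + v group with glmQLFit and glmQLFTest of edgeR 4.0.16 (R 4.3.3), fitted on the 10 libraries compared, with total counts for library sizes, on genes with at least 10 counts summed over them, with Benjamini-Hochberg adjustment at 0.05. A test with 3 degrees of freedom covered all 4 groups. A standard error is the absolute log2 fold change over the square root of F. The pipeline was tested on simulated data. Exact permutation tests, the correlations (100000 resamples, Benjamini-Hochberg over 75 relations) and Wilson intervals used scipy 1.17.1. A fold against a group at 0 was set against 3 counts per library. Intervals and such floors cover counting error only. The labels do not say whether a library is 1 mouse, and p-values measure the spread between libraries.

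The 10 genes and the lists were chosen with earlier results of these data known. The genes to be named were all 10, every called gene of a list and the 2 with the highest mean in each list, and the 10 most alike in pattern. Some genes that this rule names are not reported here. *Slc17a6*, *Slc5a7*, *Chat*, *Slc18a3*, *Th*, *Dbh* and the 7 oligodendrocyte genes are named as markers of cell types and were chosen after their values were seen. Of the hair cell list 1 of 25 genes had no row in the tables. Alternatives were TMM normalization, DESeq2 1.42.0, no filter, the default filter of edgeR, all 20 libraries in 1 fit, limma 3.58.1 on log2(CPM + 1), other pseudocounts, and each library left out. The exact permutation tests of the 3 comparisons were added after the data were seen.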

Additional observations from a re-analysis of the deposited data

Results flagged for a closer look

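In 17 of the 44 groups of 5 libraries examined, 1 library stood apart from the other 4 by Dixon's test. Its error rate of about 1 in 20 holds for normally distributed values. It does not hold for counts with many zeros, so that the 17 cannot be set against it. The 44 are the groups with any count of the 10 genes and the sums of 3 lists. In 10 of the 17 the other 4 libraries had no count, so that these mark a gene counted in a single library of the group.

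*Nefh* stood apart in OVX + v replicate 6 at 51.1 CPM. *Ina* did so at 3.56 CPM in sham + v replicate 3, 5.31 CPM in OVX + E2 replicate 11 and 1.54 CPM in OVX + RAL replicate 16. *Prph* did so at 29.7 CPM in sham + v replicate 1. *Stmn2* stood apart at 8.30 CPM in sham + v replicate 3, 28.03 CPM in OVX + v replicate 6 and 12.97 CPM in OVX + RAL replicate 20. *Snap25* did so at 25.2 CPM in OVX + E2 replicate 11 and 18.002 CPM in OVX + RAL replicate 16. *Tubb3* did so at 14.54 CPM in sham + v replicate 4 and 3.11 CPM in OVX + v replicate 6. *Gap43* stood apart at 41.8 CPM in OVX + RAL replicate 20 and, with a single count, at 0.495 CPM in OVX + v replicate 9. *Uchl1* did so at 16.7 CPM in OVX + v replicate 10 and 41.5 CPM in OVX + E2 replicate 12. The sum of the 45 other neuronal genes was lowest of its group in OVX + v replicate 10, at 1182 CPM. No library stood apart for *Nefm* or *Nefl* in any group.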

How the results depend on the processing

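The count of the 10 genes called was 0 in each comparison and in the test over all 4 groups under the alternatives run. This says nothing of genes left untested. The default filter of edgeR tested 2 of the 10 in each comparison and 5 over all groups, and DESeq2 gave no adjusted p to 5 (sham + v), 4 (OVX + E2), 2 (OVX + RAL) and 3 (all groups). The counts of neighbouring groups and of correlated pairs past the threshold were also 0 under theirs. Over all genes, the calls ranged from 0 to 12 (sham + v), 1 to 38 (OVX + E2) and 0 to 11 (OVX + RAL). TMM normalization moved the median log2 fold change of all genes in the OVX + E2 comparison from -0.06 to -0.17, and limma on log2(CPM + 1) moved it to -0.46, and from -0.02 to -0.15 in the sham + v comparison. Of 401 refitted fold changes of the 10 genes, 390 had an adjusted p, of which none passed the threshold (lowest adjusted p 0.325), 11 by DESeq2 had none, and 30 turned direction. The cause was not tested.

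For the Schwann cell list, 1 gene was called in the sham + v comparison with limma and 1 in the OVX + RAL comparison with all 20 libraries in 1 fit, in place of 0, and 0 in the OVX + E2 comparison with the default filter of edgeR, in place of 1. Leaving out a library gave 0 to 1 in the sham + v and OVX + RAL comparisons. For the muscle list DESeq2 called 1 in the OVX + E2 comparison, in place of 0.

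With log2(CPM + 1), by limma and by the exact permutation test alike, and beside the shifts of all genes given above, the direction turned for *Nefm* in the sham + v comparison (0.092), for *Snap25* (-0.71), *Uchl1* (-0.42) and *Nefh* (1.20) in the OVX + E2 comparison, and for *Snap25* in the OVX + RAL comparison (-0.73).

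Leaving out a library gave ranges that crossed 0 in the sham + v comparison for *Nefm* (-0.14 to 0.31; 0.049, 0.013, 0.075, 0.31 and 0.017 without replicates 3, 4, 5, 6 and 9) and *Stmn2* (-4.75 to 4.69, the last without replicate 6). In the OVX + E2 comparison this held for *Nefl* (-0.37 to 0.055; 0.039, 0.055 and 0.032 without replicates 6, 7 and 11), *Nefh* (-0.79 to 6.70; 6.70, 0.077 and 0.077 without replicates 6, 13 and 14), *Snap25* (-2.12 to 0.79, the first without replicate 11) and *Uchl1* (-5.69 to 2.93, the first without replicate 12). In the OVX + RAL comparison it held for *Nefl* (-1.05 to 0.047, the last without replicate 20), *Nefh* (-0.013 to 8.26, the first without replicate 16), *Snap25* (-1.71 to 0.47; -0.17 and -1.71 without replicates 9 and 16), *Stmn2* (-6.32 to 5.27, the last without replicate 6) and *Uchl1* (-0.046 to 3.18, the first without replicate 16). *Nefl* kept its direction in the sham + v comparison (0.26 to 0.69), and *Nefm* in the OVX + E2 (-0.67 to -0.18) and OVX + RAL (-1.05 to -0.39) comparisons.

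No paired analysis was made, as the labels name no pairing of libraries between groups. With 1123053 to 2081747 counts per library, levels under about 3 counts (1.44 to 2.67 CPM) were not measured, which bears on all of the 10 genes except *Nefm* and *Nefl*.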
